A study of Mus musculus with 40 samples.

Results

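NF-κB is a family of dimeric transcription factors, and the 10 genes described here encode its subunits and the inhibitors that act back on it. They are the subunit genes *Nfkb1*, *Nfkb2*, *Rela* and *Relb*, the inhibitor genes *Nfkbia*, *Nfkbib* and *Nfkbie*, the nuclear IκB genes *Nfkbiz* and *Bcl3*, and *Tnfaip3*, which encodes the ubiquitin-editing enzyme A20. The genes were chosen by name, and all 10 were listed in both expression tables, out of 17831 genes listed in at least one. The hearts of mice of both sexes gave 1 polyA RNA library per mouse, and levels are given in CPM (read counts scaled library by library).

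Control mice carried the α-MHC-MerCreMer (MCM) transgene without *Rosa26-Il11* and were given tamoxifen. The sample labels call them WT and place them at baseline, and neither source gives how long after tamoxifen they were collected. CM-Il11-Tg mice carried both alleles, heterozygous, and were collected 1, 3 or 6 weeks after tamoxifen, which was given at 20 mg/kg for 5 days from 8 weeks of age. Uninduced CM-Il11-Tg mice received no tamoxifen, and their age at collection is not given. All groups therefore carried MCM, which the α-MHC promoter drives in cardiomyocytes, and groups with and without tamoxifen differ in that treatment as well. Of 40 libraries 38 were used, 4 per group and sex except for 3 in male controls and 3 in males at 6 weeks. The labels of the remaining 2 male libraries contradict each other, and these were left out. The labels give the tissue as heart, whereas the paper's text names the left ventricle. Cardiomyocyte markers (*Myh6*, *Tnnt2*, *Actn2*, *Ryr2*, *Pln* and *Tnni3*) summed to between 18431 and 49222 CPM in every library used.

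In resting cells, IκB proteins such as IκBα (*Nfkbia*) hold NF-κB dimers in the cytoplasm until the IκB kinase complex marks them for degradation. A separate, non-canonical route processes the *Nfkb2* product p100 to p52, the usual partner of RelB. Many inhibitors of the pathway are themselves NF-κB target genes, so that a signal is followed by its own brake. The nuclear members Bcl-3 and IκBζ (*Nfkbiz*) bind p50 or p52 homodimers and can activate as well as repress transcription. In the heart, the pathway is known from injury, infiltrating leukocytes and remodelling.

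Depth ran from 16663513 to 65333832 reads on listed genes in males and from 19147947 to 30929192 in females. *Il11*, the induced gene, lay between 0 and 0.166 CPM in all 7 control libraries. It lay between 15.5 and 49.1 CPM in the 8 uninduced libraries and between 328 and 819 CPM in the 23 induced ones, so the groups followed their labels. Male 6-week replicate 4 stood furthest from its own group, with a median absolute log2 difference of 0.348 over genes.

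The promoter windows of the members are shown first, because the κB motif, which NF-κB dimers bind, can be searched for in them. RefSeq promoter windows of 300 bases (250 before and 50 after a transcription start) were found for 7 of the 10 genes. None was found for *Nfkb1*, *Relb* and *Nfkbiz*. A match to the κB consensus on either strand was present in the windows of 5 of these 7 genes, namely *Bcl3*, *Nfkbie*, *Nfkb2*, *Nfkbia* and *Tnfaip3*, and in 8.46% of all 32851 windows. The windows of *Rela* and *Nfkbib* held none. The following windows of the members with a match near the start are written 5′ to 3′ along the gene, with the κB matches in capitals. Their GRCm39 positions, found by exact match of the sequence to the genome, are chr7:19556631-19556930 (minus strand) for *Bcl3*, chr17:45866376-45866675 (plus strand) for *Nfkbie*, chr19:46292926-46293225 (plus strand) for *Nfkb2*, chr12:55539383-55539682 (minus strand) for *Nfkbia* and chr10:18891109-18891408 (minus strand) for *Tnfaip3*.
Bcl3: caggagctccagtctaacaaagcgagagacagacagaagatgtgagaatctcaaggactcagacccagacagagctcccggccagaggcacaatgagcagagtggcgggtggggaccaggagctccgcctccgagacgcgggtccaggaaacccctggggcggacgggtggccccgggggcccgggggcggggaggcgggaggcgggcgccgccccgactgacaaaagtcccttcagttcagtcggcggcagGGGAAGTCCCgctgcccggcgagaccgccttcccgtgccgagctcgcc
Nfkbie: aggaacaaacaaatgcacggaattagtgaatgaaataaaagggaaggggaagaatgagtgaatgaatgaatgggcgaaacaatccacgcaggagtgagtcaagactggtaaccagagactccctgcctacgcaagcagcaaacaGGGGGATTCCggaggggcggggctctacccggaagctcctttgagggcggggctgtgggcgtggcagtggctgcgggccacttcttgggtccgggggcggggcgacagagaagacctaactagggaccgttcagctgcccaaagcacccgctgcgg
Nfkb2: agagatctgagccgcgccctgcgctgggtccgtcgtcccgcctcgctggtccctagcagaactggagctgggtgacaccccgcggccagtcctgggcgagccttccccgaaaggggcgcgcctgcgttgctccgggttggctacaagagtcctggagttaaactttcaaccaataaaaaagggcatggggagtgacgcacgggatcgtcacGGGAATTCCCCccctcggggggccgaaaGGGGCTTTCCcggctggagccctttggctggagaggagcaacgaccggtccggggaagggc
Nfkbia: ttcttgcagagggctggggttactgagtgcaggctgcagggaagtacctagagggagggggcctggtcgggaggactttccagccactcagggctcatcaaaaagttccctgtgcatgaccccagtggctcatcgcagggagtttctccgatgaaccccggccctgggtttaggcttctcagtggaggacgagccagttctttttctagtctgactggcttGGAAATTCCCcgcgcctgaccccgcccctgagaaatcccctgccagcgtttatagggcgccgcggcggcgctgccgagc
Tnfaip3: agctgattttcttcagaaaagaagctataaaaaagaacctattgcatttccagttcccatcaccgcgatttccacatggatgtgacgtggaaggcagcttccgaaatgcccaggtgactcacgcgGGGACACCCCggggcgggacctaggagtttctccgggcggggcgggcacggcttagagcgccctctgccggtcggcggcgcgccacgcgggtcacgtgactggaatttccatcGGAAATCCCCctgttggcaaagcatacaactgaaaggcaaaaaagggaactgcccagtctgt

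In *Bcl3* the match began 3 bases downstream of the start and read the same class of motif on both strands. That of *Nfkbia* began 29 bases upstream, and that of *Nfkbie* lay further upstream. The *Nfkb2* window held 3 overlapping or neighbouring places, beginning 39, 38 and 11 bases upstream, and *Tnfaip3* held 2, beginning 125 and 12 bases upstream. The STAT element TTCNNNGAA, searched on both strands because IL11 signals in part through STAT3, was present in 1 member window, 148 bases upstream of this *Nfkb2* start, and in 8.30% of all windows. *Nfkb2* has 2 further annotated starts and *Tnfaip3* has 1 further start. Both further *Nfkb2* windows held κB matches, and the further *Tnfaip3* window held none. A match is a description of the letters, and genes with a match included both members that rose and *Nfkbia*, which did not pass the test.

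Changes were tested with limma on log2(CPM + 0.5) within each sex, with p-values adjusted by the Benjamini-Hochberg method over all genes tested (16931 in males and 16956 in females). A gene was called at an adjusted p under 0.05 with no minimum fold. All 10 members were among the genes tested. In males 6 members were called at 1 week, 5 at 3 weeks and 6 at 6 weeks against control, and every call was a rise. Of all male genes tested, 33.5%, 21.3% and 27.1% were called at these weeks, of which 18.9%, 13.2% and 16.2% of genes were called higher. In females 6, 6 and 8 members were called, again all higher, against 28.4%, 31.3% and 42.7% of all genes in either direction and 15.3%, 16.8% and 21.7% higher. The median log2 fold change over the 10 members at 6 weeks was 0.55 in males and 0.85 in females, where the median over all genes was -0.01 and -0.02. *Bcl3*, *Nfkbie*, *Nfkbiz*, *Relb* and *Nfkb2* were called at each of the 3 weeks in both sexes, with no overlap between induced and control libraries in any of these comparisons. The share of all genes that were called or separated in all of them is not given here, so the separation is a description only. *Nfkbia* and *Nfkbib* were called at no week in either sex. The male counts depend on the 2 libraries left out: placing them by title gave 4, 0 and 0 members called at 1, 3 and 6 weeks, and placing them by description gave 7, 5 and 7. Of all genes 19.3%, 0% and 0% were called by title and 35.6%, 24.3% and 31.6% by description. The library titled as a control held 511 CPM of *Il11* and the library titled as 6 weeks held 0.597 CPM, so the induced gene goes against both titles.

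**Figure D1:**
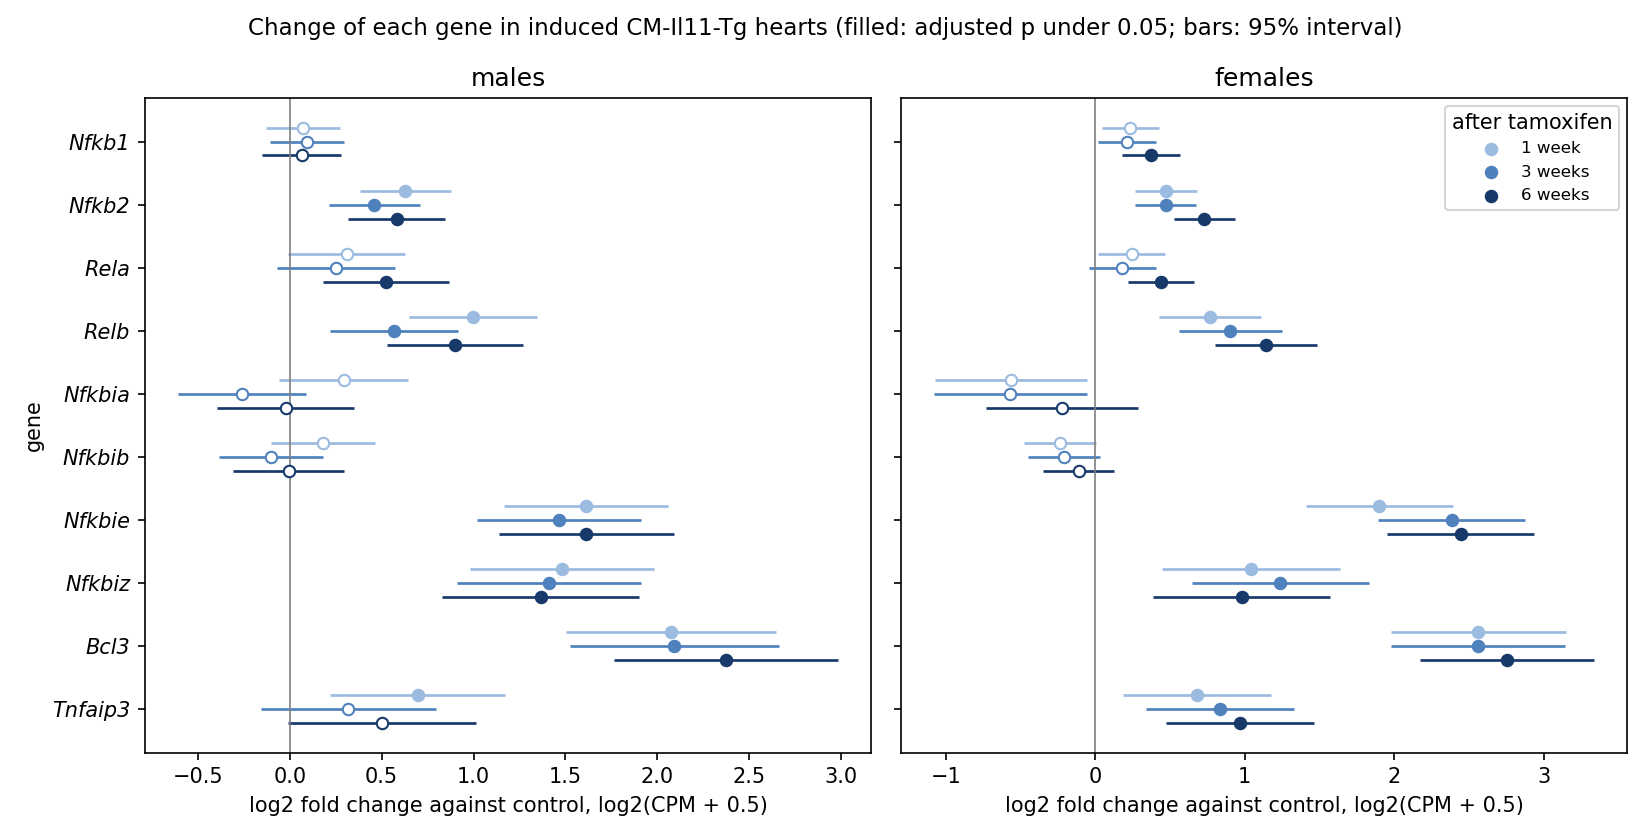
Log2 fold change of each of the 10 genes against control at 1, 3 and 6 weeks after tamoxifen, in males (left) and females (right). Points are limma estimates on log2(CPM + 0.5), bars are 95% confidence intervals, and filled points have an adjusted p under 0.05. *Bcl3* and *Nfkbie* lie furthest to the right in females, and *Nfkbia* and *Nfkbib* have open points throughout, with female *Nfkbia* at -0.56 and -0.57 at 1 and 3 weeks.

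Deposited column sums ran from 1063756 to 1196278 in controls and from 817395 to 1165099 in induced hearts. They overlapped through male control replicate 4 and male 6-week replicate 4. When values were instead scaled to the total of reads on listed genes, the median gene moved by 0.33, 0.23 and 0.16 on the log2 scale in males and by 0.28, 0.30 and 0.33 in females at 1, 3 and 6 weeks. The share of higher among called genes then went from 56.4%, 62.0% and 59.9% to 90.8%, 90.8% and 85.8% in males, and from 53.7%, 53.7% and 50.8% to 92.3%, 92.2% and 88.9% in females. With that scaling all 10 members were called higher in males at 1 week, *Nfkbia* and *Nfkbib* included. Of all male genes tested, 41.7% were called there, with 6410 of 16931 higher. The rises of *Bcl3*, *Nfkbie*, *Nfkbiz*, *Relb* and *Nfkb2* passed the test under either scaling.

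*Bcl3* encodes a nuclear IκB protein that binds p50 and p52 homodimers, and it showed the largest fold change of the members at every week in both sexes. The gene (ENSMUSG00000053175) lies on chr7:19541553-19557570, minus strand, in GRCm39, and is overlapped on the other strand by the lncRNA *Gm16175*. Male control libraries held 5.25, 3.45 and 3.92 CPM. Male libraries held 20.5, 19.6, 18.9 and 17.5 CPM at 1 week, 18.7, 21.6, 17.6 and 19.6 CPM at 3 weeks, and 31.8, 11.7 and 34.9 CPM at 6 weeks. All induced male libraries lay above all controls, and the 6-week libraries spread most, with replicate 3 the lowest. The fitted rise at 6 weeks was 2.37 ± 0.29 (log2, standard error), or 5.19-fold, with an adjusted p of 5.13e-06 (limma).

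In females, *Bcl3* stood at 2.15, 3.68, 4.25 and 3.94 CPM in controls. It stood at 18.1, 24.8, 26.7 and 21.8 CPM at 1 week, at 21.4, 20.9, 26.3 and 21.95 CPM at 3 weeks, and at 28.3, 36.5, 19.3 and 22.6 CPM at 6 weeks. Every induced female library lay above every control. The rise at 6 weeks was 2.76 ± 0.28, or 6.76-fold, with a limma adjusted p of 1.34e-07, and the 1-week value was already 2.56 ± 0.28. Between the weeks, *Bcl3* did not pass the test in either sex.

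*Nfkbie* encodes IκBε, a cytoplasmic inhibitor that acts on RelA and c-Rel dimers with a delay after stimulation. The gene (ENSMUSG00000023947, chr17:45866585-45874661, plus strand) overlaps no other annotated gene. Its level was low in male controls, at 1.46, 1.78 and 2.52 CPM. It was 6.09, 7.38, 7.91 and 5.95 CPM at 1 week, 7.44, 6.51, 4.77 and 5.89 CPM at 3 weeks, and 9.95, 4.77 and 6.55 CPM at 6 weeks. No induced male library reached down to the controls. The log2 fold changes were 1.61 ± 0.21, 1.47 ± 0.21 and 1.61 ± 0.23 at 1, 3 and 6 weeks, with limma adjusted p-values from 1.19e-05 to 3.95e-05.

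Female controls held 0.517, 1.16, 1.75 and 2.38 CPM of *Nfkbie*. Induced female libraries held 4.52, 7.29, 7.69 and 6.16 CPM at 1 week, 8.85, 7.90, 11.1 and 8.46 CPM at 3 weeks, and 8.52, 11.2, 8.75 and 9.43 CPM at 6 weeks. All 12 induced libraries lay above the controls, and those of 3 and 6 weeks all lay above those of 1 week. Against control the log2 fold changes were 1.90, 2.39 and 2.45 (each ± 0.24), and the 6-week value is a 5.45-fold rise with a limma adjusted p of 5.93e-08. The difference between 6 weeks and 1 week was 0.55 ± 0.24 and did not pass the correction (limma adjusted p = 0.347).

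*Nfkbiz* encodes IκBζ, a nuclear IκB protein needed for the induction of a subset of NF-κB target genes such as *Lcn2*. It lies on chr16:55631738-55659262, minus strand (ENSMUSG00000035356). Male controls were close together at 4.16, 3.94 and 4.17 CPM. Male libraries held 22.9, 9.31, 10.7 and 9.89 CPM at 1 week, 9.87, 13.8, 11.6 and 11.9 CPM at 3 weeks, and 12.7, 12.5 and 9.12 CPM at 6 weeks. Replicate 1 at 1 week was far above the other induced hearts, and all induced libraries exceeded all controls. The log2 fold changes were 1.48 ± 0.24, 1.41 ± 0.24 and 1.37 ± 0.26.

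In female controls *Nfkbiz* was at 4.56, 3.00, 5.20 and 4.71 CPM. It was at 11.5, 6.84, 8.53 and 11.4 CPM at 1 week, 11.4, 10.2, 10.9 and 10.8 CPM at 3 weeks, and 12.9, 7.73, 10.7 and 5.98 CPM at 6 weeks. The groups did not overlap, but the lowest 6-week library was near the highest control. The rise at 6 weeks was 0.98 ± 0.28 with a limma adjusted p of 0.00919.

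Among the subunits, *Relb* encodes RelB, which pairs with p52 in the non-canonical route. The gene (ENSMUSG00000002983, chr7:19339017-19363425, minus strand) lies on the same chromosome as *Bcl3*. Male controls held 7.76, 8.86 and 8.92 CPM. Values were 18.2, 16.2, 19.0 and 16.6 CPM at 1 week, 14.4, 16.9, 10.02 and 11.1 CPM at 3 weeks, and 19.7, 12.4 and 17.7 CPM at 6 weeks. At 3 weeks replicates 3 and 4 lay close above the controls. The log2 fold changes were 1.00 ± 0.17, 0.57 ± 0.17 and 0.90 ± 0.18, and the 3-week call was lost without control replicate 1 (0.51, limma adjusted p = 0.0791) or without 3-week replicate 1 (0.51, adjusted p = 0.0517) or replicate 2 (0.44, adjusted p = 0.0713).

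Female controls held 5.94, 8.23, 10.5 and 10.5 CPM of *Relb*. Induced females held 12.8, 14.3, 16.7 and 16.4 CPM at 1 week, 17.7, 15.3, 17.7 and 15.5 CPM at 3 weeks, and 18.1, 21.5, 17.7 and 21.1 CPM at 6 weeks. No induced library overlapped the controls. The log2 fold changes were 0.77, 0.91 and 1.14 (each ± 0.16), the last with a limma adjusted p of 1.36e-05.

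*Nfkb2* encodes p100, the precursor of p52 and itself an inhibitor of RelB. The gene (ENSMUSG00000025225, chr19:46292759-46303812, plus strand) is overlapped on the other strand by *Psd* and the lncRNA *4833438C02Rik*, and whether the counting used strand is not given in the sources used here. Male controls held 22.7, 24.96 and 24.0 CPM. Induced males held 38.9, 32.3, 38.7 and 39.6 CPM at 1 week, 36.6, 34.04, 33.3 and 28.8 CPM at 3 weeks, and 40.7, 29.3 and 39.2 CPM at 6 weeks. The induced libraries all exceeded the controls. Log2 fold changes were 0.63 ± 0.12, 0.46 ± 0.12 and 0.58 ± 0.13, which are rises of 1.55, 1.38 and 1.498 times.

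Female *Nfkb2* values were 23.7, 21.4, 24.3 and 24.1 CPM in controls. They were 28.3, 34.9, 36.1 and 31.5 CPM at 1 week, 33.6, 29.1, 35.7 and 32.1 CPM at 3 weeks, and 36.9, 43.4, 37.9 and 38.1 CPM at 6 weeks. The 6-week libraries were the highest group, above every library of 1 and 3 weeks. The fold change at 6 weeks was 0.73 ± 0.10 on the log2 scale (limma adjusted p = 5.9e-06), and the difference from 1 week, 0.26 ± 0.10, did not pass the correction (adjusted p = 0.281).

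*Rela* encodes p65, the main activating subunit of the canonical route, and it passed the test at 6 weeks in both sexes and not at 1 or 3 weeks. The gene (ENSMUSG00000024927) lies on chr19:5687493-5698161, plus strand. Male controls held 32.0, 33.8 and 34.5 CPM and male 6-week libraries held 43.3, 35.8 and 72.1 CPM. The male call rests on replicate 4, the library that stood furthest from its group. The log2 fold change was 0.52 ± 0.16 (limma adjusted p = 0.0229) with that library and 0.24 (adjusted p = 0.0995) without it, and leaving out control replicate 1 or 3 also ended the call (adjusted p of 0.0674 and 0.0577), as did a fit of these 2 groups alone (adjusted p = 0.161). At 1 and 3 weeks all male libraries also lay above the controls, from 39.8 and 36.2 CPM upward, with values of 0.31 and 0.25 (limma adjusted p of 0.13 and 0.277). The 1-week value passed in a fit of these 2 groups alone (adjusted p = 0.0308), and both passed with scaling to the total of reads (0.66 and 0.51). Female controls held 31.2, 31.4, 40.1 and 37.6 CPM of *Rela*, and female 6-week libraries held 41.9, 53.9, 48.2 and 46.7 CPM. These female groups did not overlap, and the rise was 0.44 ± 0.11 with a limma adjusted p of 0.00251. Female *Rela* at 1 week was called in 3 of 18 alternatives, with values from 0.19 to 0.59. At 3 weeks it was called in 1 of 18, with values from 0.13 to 0.53.

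*Nfkb1* encodes p105, the precursor of p50, and was called in females at 6 weeks. The gene (ENSMUSG00000028163) lies on chr3:135290264-135397742, minus strand. Female controls held 37.4, 38.7, 44.4 and 38.7 CPM, and the 6-week libraries held 46.1, 51.3, 59.0 and 50.6 CPM. All 6-week females were above all controls, with a log2 fold change of 0.37 ± 0.09 (limma adjusted p = 0.00307). At 1 week female *Nfkb1* was called in 5 of 18 alternatives, with values from 0.21 to 0.58. At 3 weeks it was called in 3 of 18, with values from 0.17 to 0.56. Male *Nfkb1* was called in 1 of 19 alternatives at 1 week and in 0 of 19 at 3 weeks. In males the log2 fold change at 6 weeks was 0.07, with a 95% confidence interval from -0.15 to 0.28, and male values ran from 43.9 to 54.0 CPM over the control and induced libraries. Whether the change of *Nfkb1* differs between the sexes was not tested.

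*Tnfaip3* encodes A20, which removes and adds ubiquitin chains on signalling adaptors upstream of the IκB kinases. The gene (ENSMUSG00000019850) lies on chr10:18874201-18891405, minus strand. Female controls held 2.07, 2.42, 3.30 and 2.44 CPM, and female libraries held 3.59, 3.76, 5.90 and 4.47 CPM at 1 week, 6.88, 4.10, 4.11 and 4.94 CPM at 3 weeks, and 3.96, 5.28, 9.90 and 4.10 CPM at 6 weeks. All induced females were above the controls, and replicate 3 was the highest of the 6-week group. The rises were 0.68, 0.84 and 0.97 (each ± 0.24), and the 1-week call (limma adjusted p = 0.0369) was lost without control replicate 1, 2 or 4 or without 1-week replicate 3 or 4, with values from 0.55 to 0.67 and adjusted p from 0.0697 to 0.123, and with a pseudocount of 2 (0.49, adjusted p = 0.0533). In males *Tnfaip3* was called at 1 week (0.70 ± 0.23, limma adjusted p = 0.0242), while the 6-week value was 0.50 ± 0.24 (adjusted p = 0.135). Male controls held 2.92, 3.90 and 3.58 CPM, against 6.39, 6.82, 6.28 and 4.38 CPM at 1 week and 6.68, 4.77 and 4.13 CPM at 6 weeks. The male 1-week call was lost without control replicate 1 or 4 or without 1-week replicate 1, 2 or 3, with values from 0.59 to 0.72 and limma adjusted p from 0.0506 to 0.0971.

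*Nfkbia* encodes IκBα, the best-known feedback inhibitor of the canonical route, and it was not called against control at any week. The gene (ENSMUSG00000021025) lies on chr12:55535332-55539432, minus strand. Male controls held 44.0, 47.5 and 52.8 CPM, and male 6-week libraries held 38.2, 55.5 and 49.5 CPM. Female controls ranged widely at 103, 66.7, 44.1 and 64.9 CPM, as did female 6-week libraries at 37.7, 50.6, 100 and 55.5 CPM. Control and induced hearts overlapped in both sexes. At 1 week males held 70.0, 59.0, 59.2 and 49.1 CPM, a rise that was not called. Over 19 alternatives this rise ran from 0.21 to 0.65 and was called in 2. These were placing the left-out libraries by description (0.49, limma adjusted p = 0.0385) and scaling to the total of reads (0.65, limma adjusted p = 0.00422). The log2 fold change at 6 weeks was -0.02 (95% confidence interval -0.40 to 0.35) in males and -0.22 (-0.73 to 0.29) in females, and the fitted 6-week rises of *Bcl3*, *Nfkbie*, *Nfkbiz*, *Relb* and *Nfkb2* lie above the upper limit in the same sex. At 1 and 3 weeks in females the values were -0.56 and -0.57 (each ± 0.24, limma adjusted p of 0.0932 and 0.0838). Without female control replicate 3, the lowest control, these were called at -0.76 (adjusted p = 0.0262) and -0.77 (adjusted p = 0.0251). The 3-week value was also called by DESeq2 (-0.61, adjusted p = 0.0486) and in a fit of 2 groups (adjusted p = 0.045), whereas scaling to the total of reads gave -0.22 at both weeks and leaving out control replicate 1, the highest control, gave -0.35 and -0.36, none of them called.

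*Nfkbib* encodes IκBβ, and its control and induced libraries overlapped at every week. The gene (ENSMUSG00000030595, chr7:28457486-28466937, minus strand) is overlapped by *Sirt2* and *Ccer2* on the other strand. Values lay between 12.4 and 21.4 CPM in male control and induced libraries and between 11.6 and 16.7 CPM in female ones. Its log2 fold change at 6 weeks was -0.01 (95% confidence interval -0.31 to 0.30) in males and -0.11 (-0.35 to 0.13) in females.

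**Figure D2:**
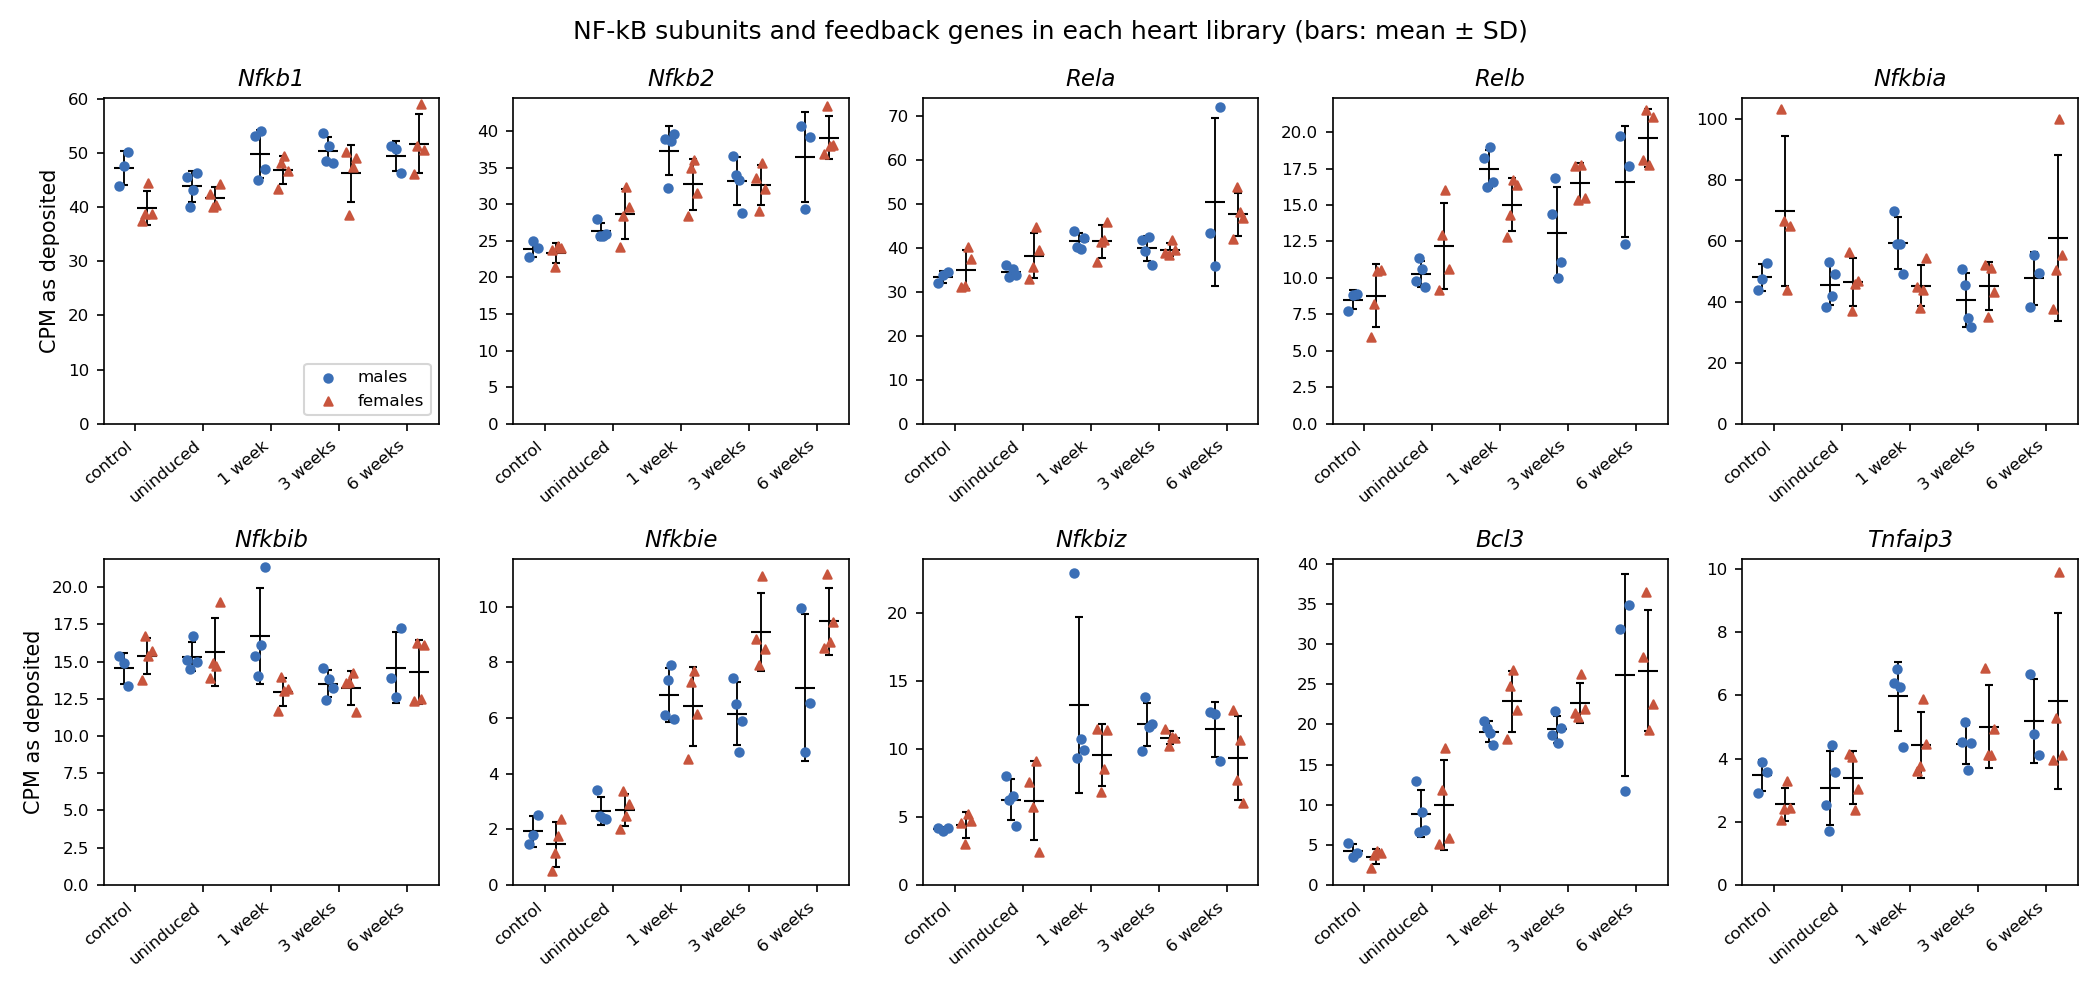
Level of each of the 10 genes in every library used, in CPM as deposited on linear axes that start at 0, by group and sex (blue circles, males; red triangles, females). Black marks are the group mean ± SD (n = 4, or 3 for male controls and males at 6 weeks). *Bcl3*, *Nfkbie*, *Nfkbiz*, *Relb* and *Nfkb2* are higher in every induced library than in every control of the same sex, and *Nfkbia* and *Nfkbib* overlap throughout.

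Levels were compared between genes per kb of annotated exon, with all isoforms of a gene merged, so genes with long rare isoforms are placed too low. In male controls *Nfkbia* was the highest member at 24.8 ± 2.28 CPM per kb (SD, n = 3), followed by *Rela* at 10.2 ± 0.399, *Nfkbib* at 6.17 ± 0.444, *Nfkb1* at 3.68 ± 0.245, *Nfkb2* at 3.03 ± 0.140 and *Relb* at 1.67 ± 0.129. Each of these stood above the next beyond the range of its libraries. *Bcl3* at 0.802 ± 0.178 and *Nfkbiz* at 0.728 ± 0.0232 overlapped, as did *Nfkbie* at 0.459 ± 0.130 and *Tnfaip3* at 0.357 ± 0.0513. Female controls gave the same order down to *Relb*, except that the ranges of *Nfkb1* and *Nfkb2* overlapped. Their lower ranks, *Nfkbiz*, *Bcl3*, *Nfkbie* and *Tnfaip3*, overlapped one after another.

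At 6 weeks *Bcl3* followed *Nfkbib* in the order in both sexes, at 4.99 ± 2.40 CPM per kb in males (n = 3) and 5.09 ± 1.44 in females (n = 4), and its range overlapped those of *Nfkbib* and *Nfkb2*. *Nfkbia* and *Rela* remained the highest 2, with ranges that overlapped in males through *Rela* in replicate 4 (22.01 CPM per kb, against at most 13.2 in the others and 19.7 for the lowest *Nfkbia*), at 24.7 ± 4.55 and 15.4 ± 5.84 CPM per kb in males and 31.5 ± 14.03 and 14.6 ± 1.51 in females. *Tnfaip3* remained the lowest, at 0.534 ± 0.137 in males and 0.599 ± 0.287 in females.

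Ratios between members of 1 library do not depend on how the libraries were scaled. The following 3 ratios of CPM per kb were chosen after the single values had been seen, and they are given as a description with no test. *Nfkb2* to *Nfkb1* was 0.780 to 0.851 in male controls and 0.942 to 1.38 in males at 6 weeks, and 0.889 to 1.03 and 1.04 to 1.38 in the same groups of females. *Relb* to *Rela* was 0.123 to 0.180 in female controls and 0.237 to 0.290 in females at 6 weeks. In males it was 0.156 to 0.169 in controls and 0.158 to 0.293 at 6 weeks, and these ranges overlapped through replicate 4 alone, the other male 6-week libraries being at 0.222 and 0.293. *Nfkbie* to *Nfkbia* was 0.0153 to 0.0221 in male controls against 0.0397 to 0.120 at 6 weeks, and 0.00231 to 0.0184 against 0.0404 to 0.105 in females. In both sexes the last ratio was higher in every induced library of the 3 weeks than in any control.

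**Figure D3:**
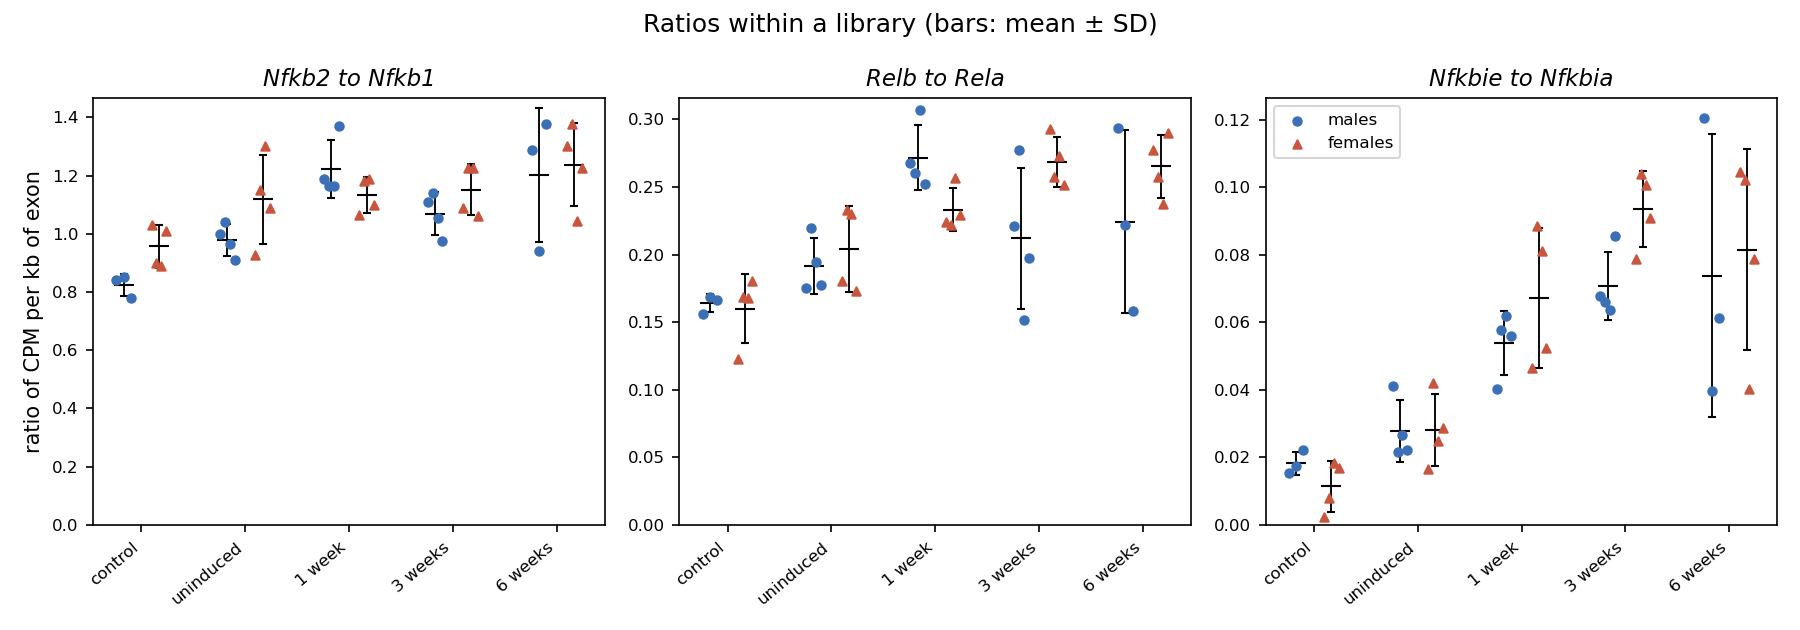
Ratio of CPM per kb of exon within each library for *Nfkb2* to *Nfkb1*, *Relb* to *Rela* and *Nfkbie* to *Nfkbia*, by group and sex on linear axes that start at 0. Black marks are the group mean ± SD (n = 3 or 4). The *Nfkbie* to *Nfkbia* ratio of controls, at most 0.0221, lies below that of every induced library.

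The uninduced hearts carried both alleles and received no tamoxifen, and *Il11* was measurable there. The controls had received tamoxifen, and the age of the uninduced mice is not given. An effect of the *Il11* transgene can therefore not be told apart from these differences. *Bcl3* was the one member called, in females. In uninduced females, 1 member was called against control where 2.87% of all genes were called (2.41% higher), and where the share of higher among called genes was 83.8%, or 96.0% with the other scaling. *Bcl3* held 5.04, 11.8, 17.01 and 5.79 CPM there, each above the highest control of 4.25 CPM. Replicate 3 had the highest *Bcl3* and also the highest *Il11* of the uninduced hearts, 49.1 CPM against 15.5 to 21.4 CPM in the other females. The log2 fold change was 1.25 ± 0.28 (limma adjusted p = 0.014). It was 0.95 (adjusted p = 0.0598) without that library, 1.12 (adjusted p = 0.0532) without replicate 2 and 1.06 (adjusted p = 0.0701) without control replicate 1, so the call rests on each of these.

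In uninduced males, 0 members were called by limma against 0.597% of all genes (0.561% higher), with 2 members at an unadjusted p under 0.05 (10.6% of all genes), 0 called by edgeR (0.591%) and 1 by DESeq2 (1.62%). Male *Bcl3* held 13.0, 6.55, 9.12 and 6.89 CPM, all above the controls, with a log2 fold change of 0.96 ± 0.27 (limma adjusted p = 0.151). DESeq2 on the recovered reads called it, at 1.08 (adjusted p = 0.0135). The uninduced libraries of *Nfkbiz*, 7.97, 6.23, 6.54 and 4.36 CPM in males, also lay above the male controls, with a log2 fold change of 0.53 ± 0.24 that did not pass (limma adjusted p = 0.441). So did those of *Relb* (lowest 9.35 CPM, highest control 8.92 CPM) and *Nfkb2* (lowest 25.64 CPM, highest control 24.96 CPM), which did not pass either. That makes 4 members, and the share of all genes that separate in this way is not given here.

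Against uninduced hearts, 7 members were called higher in males at 6 weeks, where 20.4% of all genes were called and 13.0% were higher, and 6 in females, where 22.8% were called and 13.7% were higher. *Bcl3* rose by 1.41 ± 0.27 in males and 1.51 ± 0.28 in females on the log2 scale (limma adjusted p of 0.00104 and 0.000465). *Nfkbie* rose by 1.22 ± 0.21 and 1.66 ± 0.24, *Relb* by 0.64 ± 0.17 and 0.69 ± 0.16, and *Nfkb2* by 0.45 ± 0.12 and 0.45 ± 0.10. These comparisons share the 6-week libraries with those against control. With scaling to the total of reads on listed genes the share of higher among called genes went from 63.7% to 77.3% in males and from 60.1% to 92.3% in females. Placing the 2 left-out libraries by title gave 0 male members called, and by description 7. Of all genes, 0.0236% were called by title and 23.6% by description. Without male 6-week replicate 1, 3 members were called in males, and *Nfkb2* (0.36, limma adjusted p = 0.0578) and *Relb* (0.51, adjusted p = 0.056) were not among them. The share of all genes called without that library is not given here. *Nfkbiz* was lost without uninduced replicate 4 or 6-week replicate 1 or 3 (0.68 to 0.76, adjusted p of 0.0555 to 0.0677), and *Tnfaip3* without uninduced replicate 1 or 2 or 6-week replicate 1 (0.51 to 0.66, adjusted p of 0.0731 to 0.139). Male *Rela* was lost without uninduced replicate 2, 3 or 4 or 6-week replicate 4 (0.19 to 0.48, adjusted p of 0.0613 to 0.221). In females *Nfkb1* was lost without uninduced replicate 2 or 6-week replicate 3 (0.28 and 0.24, adjusted p of 0.0641 and 0.0833), and *Rela* without uninduced replicate 1 or 2 or 6-week replicate 2, 3 or 4 (0.25 to 0.33, adjusted p of 0.0566 to 0.128).

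**Figure D4:**
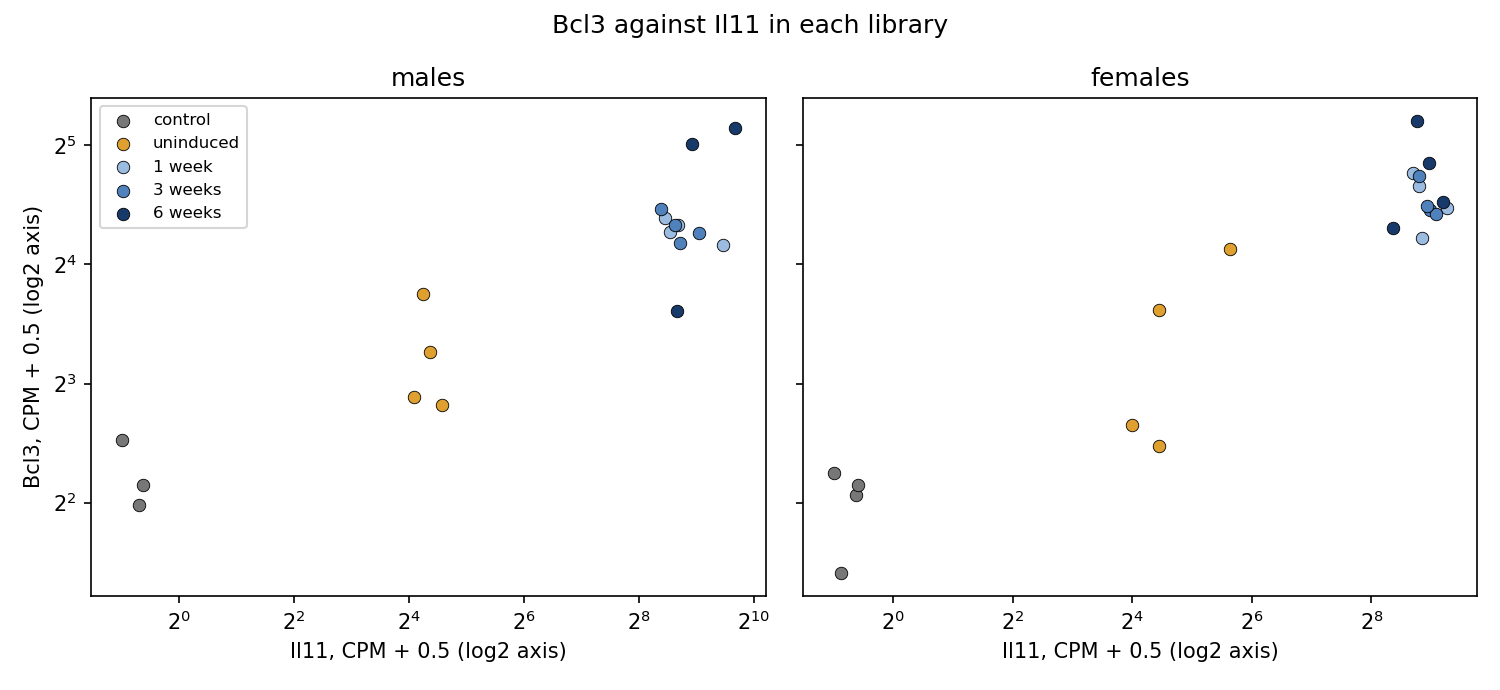
*Bcl3* against *Il11* in each library, both as CPM + 0.5 on log2 axes, for males (left) and females (right), with 1 point per library and colours for the groups. Controls lie at the lower left, uninduced hearts between 15.5 and 49.1 CPM of *Il11*, and induced hearts at the upper right, so the 3 kinds of group form separate clusters along the *Il11* axis.

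Between the weeks after tamoxifen, 0 members were called by limma in either sex, and 0 by edgeR or DESeq2. Of all genes, 0.0177% (3 against 1 week), 0.165% (6 against 1 week) and 0% (6 against 3 weeks) were called in males and 0.218%, 1.03% and 0% in females. At an unadjusted p under 0.05, 3, 0 and 0 members were counted in males, beside 2710, 2615 and 1072 of all 16931 genes tested, and 0, 3 and 2 in females, beside 1699, 2137 and 2572 of 16956. The male members were *Nfkbia*, *Relb* and *Nfkbib*, each lower at 3 weeks than at 1 week. *Nfkbia*, the largest of these, was at 70.0, 59.0, 59.2 and 49.1 CPM at 1 week and 50.8, 45.6, 34.7 and 31.8 CPM at 3 weeks, with a log2 difference of -0.55 ± 0.16 (limma adjusted p = 0.139). In females *Nfkb2*, *Relb* and *Nfkbie* were the members counted at 6 weeks against 1 week, with differences of 0.26, 0.37 and 0.55, and *Nfkb2* and *Rela* those at 6 weeks against 3 weeks, at 0.26 each.

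Other genes of the pathway were taken from lists. For comparison with each list, 16.2% of all genes in males and 21.7% in females were called higher at 6 weeks against control. Lower calls were 1838 of 16931 genes in males and 3567 of 16956 in females. Of 27 upstream kinases and adaptors, 6 were called higher and 1 lower in males at 6 weeks, and 7 higher and 5 lower in females. Their median log2 fold changes were 0.12 and 0.03, close to those of all genes. *Myd88*, the adaptor of Toll-like and IL-1 receptors, rose by 1.12 ± 0.15 in males and 1.38 ± 0.19 in females. *Birc3*, a ubiquitin ligase that is also an NF-κB target, rose by 0.96 ± 0.19 and 1.21 ± 0.15, and the kinase gene *Irak4* by 0.73 ± 0.15 and 1.08 ± 0.12. *Map3k7*, which encodes the kinase TAK1, fell by 0.32 ± 0.11 in males and fell by 0.41 ± 0.09 in females. With scaling to the total of reads on listed genes, applied to the lists after their values had been seen, this list gave 10 and 17 higher and 0 lower, and *Map3k7* did not pass (-0.13 and -0.01). Of all genes, 3606 of 16931 in males and 8356 of 16956 in females were called higher with that scaling.

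Of 16 other negative regulators, 4 were called higher and 1 lower in males and 5 and 1 in females at 6 weeks, with medians of 0.02 and 0.24. Of all genes, 16.2% in males and 21.7% in females were called higher. *Traf1*, an adaptor induced by NF-κB, rose by 1.505 ± 0.22 in males and 1.77 ± 0.19 in females. *Tnip2*, whose product binds A20, rose by 1.00 ± 0.17 and 0.63 ± 0.24, and *Irak3*, a brake on Toll-like receptor signalling, by 0.83 ± 0.19 and 0.72 ± 0.11. *Tollip* fell by 0.36 ± 0.10 in males and fell by 0.25 ± 0.10 in females, but with the other scaling it stood at -0.17 and 0.14 and did not pass, and the list gave 5 and 14 higher and 0 lower. Of the 2 remaining family genes, *Rel* was at -0.21 ± 0.25 in males and -0.07 ± 0.19 in females and did not pass, and *Nfkbid* was called in males (0.83 ± 0.21, limma adjusted p = 0.0069). In females 0 of these 2 genes were called, and their median was 0.20.

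Of 12 ligand and receptor genes of the non-canonical route 8 passed the filter on low values, and 5 of these were called higher in males and 6 in females at 6 weeks, with 0 called lower in either sex and medians of 0.88 and 0.85 (the same values with *Tnfsf11* set at its bound). *Tnfsf11*, which encodes RANKL, had at most 1 read in any control library. Its call is counted in the 5 and 6, but *Tnfsf11* passed the filter only through CM-Il11-Tg libraries, which favoured a higher call. It reached 9.30 ± 4.35 CPM in males (n = 3) and 13.6 ± 3.99 CPM in females (n = 4) at 6 weeks, at least 81.8-fold higher in either sex than 3 reads would give in the shallowest control. *Tnfsf13b*, which encodes the B-cell factor BAFF, went from 1.23 ± 0.168 to 13.3 ± 0.989 CPM in males and from 1.41 ± 0.424 to 18.1 ± 2.55 CPM in females. The receptor genes *Tnfrsf11a* (RANK) and *Ltbr* rose by 1.21 ± 0.23 and 0.87 ± 0.17 in males and by 0.88 ± 0.23 and 0.82 ± 0.14 in females.

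Of 34 reported NF-κB target genes, 29 were tested, and 15 were called higher and 2 lower in males and 21 and 4 in females at 6 weeks. Their medians were 0.76 and 1.46, or 0.76 and 1.505 with the 3 genes at or below 3 control reads set at their bounds. These 3 genes passed the filter only through CM-Il11-Tg libraries, which favoured a higher call. The counts of higher targets, at this and the other weeks, were not repeated without them. *Cxcl13*, a B-cell chemokine, reached 46.2 ± 10.6 CPM in males and 46.4 ± 14.5 CPM in females from at most 1 read in a control library, at least 407-fold and 279-fold higher. *Mmp9*, a matrix protease, rose from 0.525 ± 0.423 to 26.5 ± 4.26 CPM in males and from 0.788 ± 0.323 to 33.8 ± 14.2 CPM in females. *Ccl19*, a T-cell chemokine, was at 12.2 ± 3.35 and 30.8 ± 20.2 CPM at 6 weeks in males and females, and *Lcn2*, a siderophore-binding protein known to need IκBζ, at 28.2 ± 4.66 and 21.0 ± 6.75 CPM. *Sod2*, a mitochondrial superoxide dismutase, went the other way, from 479 ± 12.6 to 322 ± 13.8 CPM in males and from 477 ± 13.996 to 314 ± 22.2 CPM in females, and it also passed as lower with the other scaling (-0.38 and -0.21). At 1 and 3 weeks these targets gave 16 and 15 higher and 4 and 2 lower in males and 18 and 21 higher and 4 and 4 lower in females, beside the shares of all genes called at those weeks given above. In uninduced hearts 2 were higher in males and 4 in females, with 0 lower, beside 0.597% and 2.87% of all genes.

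Marker RNA of several cell types also differed between the groups, and in bulk RNA more cells of a type and more RNA per cell cannot be told apart. All 7 macrophage markers were called higher at 6 weeks in both sexes. Their summed level ran from 115 to 200 CPM in male controls, 181 to 245 in uninduced males and 450 to 686 in induced males, and from 117 to 149, 209 to 305 and 501 to 689 CPM in females. In uninduced females, where *Bcl3* was called, all 7 were called as well, against 0 in uninduced males. Of 5 fibroblast markers 4 were called higher in each sex at 6 weeks, with sums of 400 to 510 CPM in male controls and 1775 to 1980 CPM at 6 weeks, and 479 to 638 and 1995 to 3511 CPM in females. Of 6 cardiomyocyte markers 1 was called lower in males and 3 in females at 6 weeks, with median log2 fold changes of -0.37 and -0.42, and with scaling to the total of reads 1 and 0 were lower. Of 5 endothelial markers 3 were called lower in each sex, and with the other scaling 1 lower in males and 1 lower and 1 higher in females. The 3 neutrophil markers listed summed to at most 8.11 CPM in any library, and the T-cell markers to at most 16.1 CPM, with 1 of 4 T-cell markers tested called higher in males and 4 of 6 in females at 6 weeks. B and plasma cell markers summed to at most 12.9 CPM apart from 1 female library at 3 weeks with 32.2 CPM. No marker listed was at 0 in a whole group. The part of these cell types in the changes of the NF-κB genes was not tested.

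The genes whose 8 log2 fold changes against control (1, 3 and 6 weeks and uninduced, in each sex) lay nearest to those of a member were looked up among 16627 genes tested in both sexes, by the root mean square difference. They were *Npl*, *C1s2* and *Gda* for *Bcl3* (0.0877, 0.185 and 0.189 on the log2 scale) and *Cd72*, *Ptger4* and *Trem2* for *Nfkbie* (0.138, 0.177 and 0.183). For *Nfkbiz* they were *Stxbp2*, *Tnfrsf11a* and *Dok3* (0.115, 0.124 and 0.141), and for *Relb* they were *Clba1*, *Clic1* and *Fbxl21* (0.104, 0.108 and 0.109). *Arsa*, *Cttn* and *Ergic3* were nearest to *Nfkb2* (0.0646, 0.0673 and 0.0676), and *Nagpa*, *Pigt* and *Lrp10* to *Rela* (0.0311, 0.0464 and 0.0477). Smaller changes leave more genes nearby, so these distances are not comparable between members.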

How the data were processed

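Gene expression was measured by sequencing of polyA RNA from mouse hearts, with a directional library kit. The authors aligned reads to GRCm39 with STAR, counted them with featureCounts and deposited signal values in CPM, 1 table per sex, that is, read counts scaled by a separate factor in every library. All values (100%) lay within 0.001 of a whole read after that factor was taken out, and columns summed to between 817395 and 1196278. The authors had already removed genes with few reads. Tables were scaled separately, so comparisons stayed within a sex.

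Log2(CPM + 0.5) was fitted with limma 3.58.1 (R 4.3.3), with a mean-variance trend, all 5 groups of a sex in 1 fit, on genes at 0.5 or more in at least 3 libraries. The threshold was an adjusted p of 0.05 (Benjamini-Hochberg over all genes). Alternatives were other pseudocounts (0.1 and 2), other filters (none, or 1 in 4 libraries), other scalings, edgeR 4.0.16 and DESeq2 1.42.0 on the recovered reads, a replicate block, fits of 2 groups, leaving out each library, and placing the 2 libraries with contradictory labels by either label. The other scaling of the gene and marker lists was added after seeing the data. The script was tested on simulated data. Limits against 3 reads cover counting error only, and the 95% confidence intervals are those of limma over mice. Replicates are separate mice. Gene positions and exon lengths are from GENCODE for GRCm39, and promoter windows are from RefSeq (build GRCm38.p6), placed on GRCm39 by exact match.

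The members, gene lists and marker lists were chosen with earlier results of these data known. From each list, up to 4 rising and 2 falling genes were named, by size of the mean change, where both sexes called them at 6 weeks in 1 direction. 1 gene named by this rule is not reported here. *Rel* and *Nfkbid* were named in addition, as the whole of their list.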

Additional observations from a re-analysis of the deposited data

Results flagged for a closer look

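Among 80 groups of 4 libraries examined, in 10 genes and 2 sexes, 4 had a library far from the other 3, and chance alone flags about 1 in 20 groups. *Nfkb2* in uninduced males had its highest value, 27.99 CPM, in replicate 1, where the others lay close together. *Nfkb2* at 1 week in males had its lowest value, 32.3 CPM, in replicate 2. *Nfkbie* in uninduced males was highest in replicate 1 at 3.39 CPM, and *Nfkbiz* at 1 week in males was highest in replicate 1 at 22.9 CPM. Replicate 1 of the uninduced males was thus singled out for 2 of the genes.

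The 2 male libraries with contradictory labels entered no comparison. The library whose title says control held 511 CPM of *Il11*, 22.5 CPM of *Bcl3*, 6.28 CPM of *Nfkbie*, 13.3 CPM of *Nfkbiz*, 10.9 CPM of *Relb*, 26.4 CPM of *Nfkb2*, 49.0 CPM of *Rela* and 4.59 CPM of *Tnfaip3*, each above the highest male control. The library whose title says 6 weeks held 0.597 CPM of *Il11* and 25.7 CPM of *Nfkb2*, also above the highest male control, and 15.4 CPM of *Nfkbib*, level with it. Its other values were within the male controls for *Bcl3* (4.18 CPM) and *Nfkbie* (2.23 CPM) and below them for *Nfkbiz* (3.58 CPM), *Relb* (7.28 CPM), *Rela* (31.4 CPM), *Tnfaip3* (2.31 CPM), *Nfkbia* (27.2 CPM) and *Nfkb1* (42.6 CPM).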

How the results depend on the processing

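Of 160 member results (10 genes in 16 comparisons), 51 were called, and 27 of these kept their direction and call under every alternative run. Over the 51, 528 of 558 values from alternatives other than leaving out a library kept the call and 340 of 378 values without 1 library did, and none changed direction. Placing the 2 male libraries with contradictory labels by title gave 0 members called at 3 weeks, 0 at 6 weeks and 0 at 6 weeks against uninduced in males, whereas placing them by description gave 5, 7 and 7. Of all genes, 0%, 0% and 0.0236% were called by title and 24.3%, 31.6% and 23.6% by description. Scaling to the total of reads on listed genes gave 10 members called in males at 1 week, 1 in uninduced males and 3 in uninduced females. Of all genes, 41.7%, 1.13% and 4.45% were called in these comparisons. DESeq2 gave 1 in uninduced males and 2 in uninduced females, where it called 1.62% and 4.65% of all genes. Fitting only 2 groups gave 4 in males at 6 weeks against uninduced and 0 in uninduced females. It also ended the calls of male *Rela* at 6 weeks against control (adjusted p = 0.161) and of female *Nfkb1* (0.102) and *Rela* (0.137) at 6 weeks against uninduced, and it called male *Rela* (0.0308) and female *Nfkb1* (0.0416) at 1 week and female *Nfkbia* at 3 weeks (0.045). Without single libraries, the count in males at 6 weeks against uninduced ran from 3 to 6, lowest without 6-week replicate 1, and in uninduced females from 0 to 2. Shares of all genes called are not given for the fits of 2 groups or for those without single libraries.

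Between libraries of different groups that share a replicate number, the mean residual correlation was 0.0132 in males and 0.0255 in females. With different numbers it was -0.00413 and -0.00854. In males 5 of 18 and in females 9 of 20 libraries correlated best with their own number, and whether this exceeds chance was not tested. With the replicate block, 2 members were called in uninduced females. Male *Rela* and *Tnfaip3* at 6 weeks against uninduced then did not pass (0.46 and 0.69), and female *Rela* at 1 week (0.24) and *Nfkbie* in uninduced hearts (0.79) did. The causes of these changes were not tested. Members at a few CPM, such as *Nfkbie* and *Tnfaip3*, carry more counting error than the others.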
